A study of Mus musculus with 8 samples.

Results

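Fc receptors bind the constant part of antibodies, and 8 of their genes were described here across mouse common lymphoid progenitors (CLPs) taken fresh from bone marrow or kept in culture. The 8 genes (Fcer1g, Fcgr1, Fcgr2b, Fcgr3, Fcgr4, Fcgrt, Fcrla and Fcrl1) were selected by symbol out of 39179 gene IDs in the tables, and all 8 were listed. The set was chosen by differences already seen between these libraries, so their own levels and differences are given as a description, with no test. The series holds 8 libraries of stranded total RNA in 2 groups of 4, all from C57BL/6 bone marrow. The ex vivo CLP group was sorted directly from marrow. The cCLP group was cultured for 2 months on OP9, a mouse stromal cell line, with Flt3L and low IL-7, and then sorted. Both sorts took cells negative for lineage markers and Ly6d and positive for CD27, IL7R and Flk2, which Flt3 encodes. No allele or transgene is named for either group, and no label gives the animal or the culture behind a library, so a p-value here speaks only of spread among the libraries, which may be technical.

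Activating Fc receptors such as those encoded by Fcgr1, Fcgr3 and Fcgr4 carry a ligand-binding chain and signal through the common gamma chain, the product of Fcer1g. The gamma chain bears an immunoreceptor tyrosine-based activation motif (ITAM), which recruits Syk once Src family kinases have phosphorylated it. Fcgr2b encodes the inhibitory receptor of the family, which recruits the phosphatase SHIP (Inpp5d). In mouse marrow an antibody that binds the products of both Fcgr3 and Fcgr2b is widely used to separate granulocyte and macrophage progenitors from other progenitors. Fcrla and Fcrl1 are Fc receptor-like genes best known from B cells, and Fcgrt encodes the heavy chain of the neonatal Fc receptor, which protects IgG and albumin in endosomes.

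The promoters of 5 of these genes are shown because the 8 genes differed widely in whether they were listed above 0, although several carry the same purine-rich run. Each line gives the 250 bases before the RefSeq transcription start listed first for the gene on GRCm38.p6. It is read 5′ to 3′ on the gene's strand, with each GAGGAA (or its reverse complement TTCCTC) in capitals. For Fcgr3, which has 2 RefSeq starts, the one listed first was used. It lies within the annotated span of the gene and need not be the most upstream. GAGGAA is the core of the box bound by PU.1, the product of Spi1.
Fcer1g (chr1:171234350-171234599, minus strand): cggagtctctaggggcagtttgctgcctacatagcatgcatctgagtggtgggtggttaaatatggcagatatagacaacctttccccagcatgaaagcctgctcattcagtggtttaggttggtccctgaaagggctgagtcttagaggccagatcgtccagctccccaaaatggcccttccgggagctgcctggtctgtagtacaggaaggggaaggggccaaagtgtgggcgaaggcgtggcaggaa
Fcgr3 (chr1:171059404-171059653, minus strand): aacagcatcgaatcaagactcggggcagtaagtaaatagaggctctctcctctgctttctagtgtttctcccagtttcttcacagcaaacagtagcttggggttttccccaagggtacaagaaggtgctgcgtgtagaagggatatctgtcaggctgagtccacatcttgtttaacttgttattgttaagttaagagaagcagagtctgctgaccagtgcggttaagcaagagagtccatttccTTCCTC
Fcgr1 (chr3:96293970-96294219, minus strand): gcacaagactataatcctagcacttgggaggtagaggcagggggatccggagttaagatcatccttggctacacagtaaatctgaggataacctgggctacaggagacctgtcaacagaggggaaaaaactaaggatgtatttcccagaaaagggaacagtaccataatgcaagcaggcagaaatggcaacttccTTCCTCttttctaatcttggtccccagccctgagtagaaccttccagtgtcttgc
Fcgr4 (chr1:171018676-171018925, plus strand): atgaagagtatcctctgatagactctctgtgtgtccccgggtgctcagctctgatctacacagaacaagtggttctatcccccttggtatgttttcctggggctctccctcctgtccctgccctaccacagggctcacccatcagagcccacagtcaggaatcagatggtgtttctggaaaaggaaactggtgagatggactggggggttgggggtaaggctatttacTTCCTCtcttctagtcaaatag
Fcrl1 (chr3:87376137-87376386, plus strand): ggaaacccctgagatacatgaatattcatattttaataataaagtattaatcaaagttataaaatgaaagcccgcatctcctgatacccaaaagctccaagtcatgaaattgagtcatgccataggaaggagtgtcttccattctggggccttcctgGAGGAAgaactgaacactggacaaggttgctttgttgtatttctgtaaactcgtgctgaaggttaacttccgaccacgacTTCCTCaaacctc
On either strand GAGGAA was present in 5 of the 8 promoter windows (Fcgr1, Fcgr3, Fcgr4, Fcrla and Fcrl1), against 23.3% of 32851 mouse windows of the same length. The match began 6 bases before the start in Fcgr3, 22 in Fcgr4, 37 in Fcrla and 55 in Fcgr1, and at 93 and 13 bases in Fcrl1. The Fcer1g window held no GAGGAA, but had the overlapping run AGGAAG 44 bases before the start. AGGAAG was likewise present in 5 of the 8 windows (Fcer1g, Fcgr1, Fcgr3, Fcgr4 and Fcrl1) and in 29.5% of all windows. Genes with a GAGGAA included Fcgr3, which was listed above 0 in every library, and Fcgr1 and Fcgr4, which were listed at 0 in all but ex vivo replicate 4. These matches are letters in a window and no measure of binding.

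Each gene was deposited as a whole number on a scale that no label names and that is not a raw count, so its depth is unknown, and a value of 0 is reported only as listed. The scale was not used to rank one gene against another. Summed values ran from 378594 to 704305 per library, and scaled values are deposited values divided by a library factor. One library in each group lay with the other group. Across 6483 genes other than the Fc receptors, the library labelled ex vivo CLP replicate 2 had a Spearman rank correlation of 0.959 to 0.986 with cCLP replicates 2, 3 and 4, against 0.738 to 0.802 with ex vivo replicates 1, 3 and 4. The library labelled cCLP replicate 1 had one of 0.947 to 0.979 with ex vivo replicates 1, 3 and 4, against 0.782 to 0.794 with cCLP replicates 2, 3 and 4. Genes are not independent, so these values carry no test. Differences are therefore given over all 8 libraries as labelled and over 6 libraries, cCLP replicates 2, 3 and 4 against ex vivo replicates 1, 3 and 4. The 6 were chosen from where the profiles lie, so the p-values of that comparison hold only given the choice. Of the sort genes, Flt3 (171 to 333), Cd27 (56 to 113) and Il7r (14 to 256) were listed in all 8 libraries. Il7r was split between the profiles. It was listed at 61, 14 and 24 in ex vivo replicates 1, 3 and 4 and at 28 in cCLP replicate 1. In ex vivo replicate 2 it was at 193, and in cCLP replicates 2, 3 and 4 at 213, 204 and 256. Ly6d, whose product was sorted against, was listed at 28, 28 and 41 in ex vivo replicates 1, 3 and 4, at 22 in cCLP replicate 1 and at no more than 1 in the other libraries.

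Fcer1g, the gene for the shared signalling chain, was listed at 66 or above in every library and, once scaled, was highest in the 4 that share the profile of cCLP replicates 2, 3 and 4 (called cCLP-like here). It (ENSMUSG00000058715, chromosome 1, 171229572 to 171234365, minus strand, GRCm38) was listed at 66, 191, 108 and 195 in ex vivo replicates 1 to 4 and at 92, 255, 299 and 359 in cCLP replicates 1 to 4. In deposited units the labelled groups overlapped, because ex vivo replicates 2, 3 and 4 stood above cCLP replicate 1. After scaling it averaged 142 ± 53.5 (SD, n = 4) and 237 ± 101, a log2 fold change of 0.67 ± 0.44 (SE) for cCLP minus ex vivo CLP. Over the 6 libraries it averaged 120 ± 33.3 (SD, n = 3) and 290 ± 18.3, 2.42 times as much, and the scaled values did not overlap (81.7 to 143 against 271 to 308). That log2 fold change was 1.31 ± 0.20, and it lay between 1.04 and 1.45 when any 1 of the 6 libraries was left out. In bulk RNA of this kind, fewer cells that express a gene and less of its RNA per cell cannot be told apart.

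Fcgr3, which encodes the low-affinity activating IgG receptor that needs the gamma chain, had the widest spread of the 8 genes on the log2 scale. Fcgr3 (ENSMUSG00000059498, chromosome 1, 171051174 to 171064935, minus strand) was listed at 1, 73, 16 and 20 in ex vivo replicates 1 to 4 and at 3, 77, 95 and 114 in cCLP replicates 1 to 4. The 4 libraries of the cCLP-like profile were all at 73 or above, and the other 4 at 20 or below. As labelled, the groups overlapped, at 29.1 ± 35.3 (SD, n = 4) and 68 ± 43.9 scaled, with a log2 fold change of 1.40 ± 1.34 (SE). This moved to 0.46 without ex vivo replicate 1 and to 2.53 without cCLP replicate 1. In the 6-library comparison Fcgr3 averaged 12 ± 9.65 (SD, n = 3) and 90.5 ± 8.04, 7.57 times as much, with a log2 fold change of 3.34 ± 0.77. Without ex vivo replicate 1 the log2 fold change was 2.32, and without ex vivo replicate 3 it was 3.96.

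The low group was itself uneven for Fcgr3. Scaled values were 1.23 in ex vivo replicate 1 and 2.87 in cCLP replicate 1, against 19.8 in ex vivo replicate 3 and 14.5 in ex vivo replicate 4. The same 4 libraries differed in granulocyte RNA. The summed scaled value of 9 granulocyte and neutrophil markers was 1210 in ex vivo replicate 1 and 1480 in cCLP replicate 1, and 2880 and 2750 in ex vivo replicates 3 and 4. For 7 of the 9 markers, scaled values in both ex vivo replicates 3 and 4 were above those in ex vivo replicate 1 and cCLP replicate 1, and for 2 they were not. The difference was wide for Elane, the neutrophil elastase gene, at 11 and 38.3 in the first pair and 389 and 382 in the second. The pairs overlapped for S100a8, a calprotectin subunit gene, at 234 and 60.3 against 298 and 214. For Camp, a granule peptide gene, ex vivo replicate 1 (51.5) and ex vivo replicate 4 (51.6) were nearly equal. The 8 mast cell and basophil markers summed to 27 and 30.6 in the first pair and to 120 and 104 in the second. Monocyte and macrophage sums (286 and 355 against 705 and 607) and dendritic cell sums (284 and 311 against 384 and 375) were also higher in the second pair. Natural killer sums were higher there by less (63.7 and 64.1 against 66.8 and 76.3). Sums of the sort genes and of stromal markers were lower there, and B lineage sums overlapped. Between the profiles Fcgr3 and the granulocyte sum went opposite ways. The granulocyte sum was 160 in ex vivo replicate 2 and 259 to 289 in cCLP replicates 2, 3 and 4, where Fcgr3 was highest. The part of other cell types in the Fcgr3 values was not tested.

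**Figure D1:**
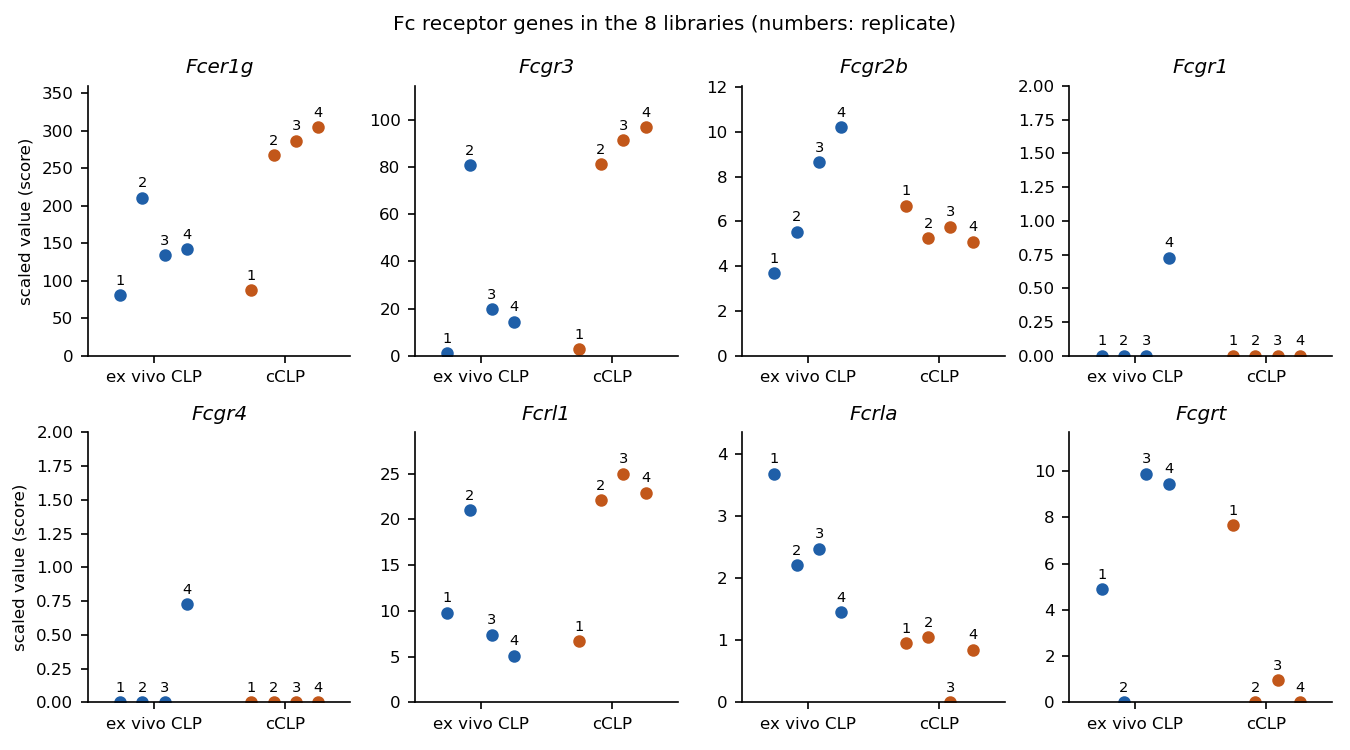
Scaled value of each of the 8 Fc receptor genes (vertical axis, linear from 0, a different range in each panel) in the 4 ex vivo CLP and 4 cCLP libraries, 1 point per library with its replicate number. Fcer1g, Fcgr3 and Fcrl1 are high in ex vivo replicate 2 and cCLP replicates 2 to 4, Fcgrt is high in the other 4, and Fcgr1 and Fcgr4 are near 0 throughout.

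The inhibitory receptor gene did not share the range of its activating partner. Fcgr2b (ENSMUSG00000026656, chromosome 1, 170958617 to 170976547, minus strand) was listed at 3, 5, 7 and 14 in ex vivo replicates 1 to 4 and at 7, 5, 6 and 6 in cCLP replicates 1 to 4. The ex vivo CLP libraries spanned the whole range and enclosed all 4 cCLP libraries. Scaled, it averaged 7.01 ± 2.94 (SD, n = 4) and 5.7 ± 0.719, and it was too low to enter the fit. The means of the 6 libraries were 7.57 ± 3.43 (SD, n = 3) and 5.42 ± 0.351, again with overlap. Reads of Fcgr3 and Fcgr2b can be confused to a small extent. Of 1733 different runs of 75 bases (the read length) in annotated Fcgr3 transcripts, 94 (5.42%) also occur in transcripts of Fcgr2b. How the authors counted reads that match both is not given in the sources used here. For Fcgr2b the share was 5.43% of 5768 runs, counted against all other genes. The other 6 genes shared no such run with any other annotated gene.

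The remaining activating receptors for IgG were listed at 0 in nearly every library. Fcgr1, the gene for the high-affinity IgG receptor of monocytes and macrophages (ENSMUSG00000015947, chromosome 3, 96282909 to 96293969, minus strand), was listed at 1 in ex vivo replicate 4 and at 0 in the other 7 libraries. Fcgr4, which encodes another activating IgG receptor of mouse myeloid cells (ENSMUSG00000059089, chromosome 1, 171018920 to 171029761, plus strand), had the same values. Neither could be compared between groups. Monocytes and macrophages are the cells in which these receptors are best known. Of 12 of their markers 5 could be tested over the 6 libraries, 4 fell and 0 rose, and the filter fixed the direction of 3 of those that fell. Ccr2, a chemokine receptor gene, was the fifth, at 20.4 ± 6.34 (SD, n = 3) and 33.5 ± 16.5 scaled (0.64 ± 0.34 SE, adjusted p = 0.169). Csf1r was listed at 32, 45 and 94 in ex vivo replicates 1, 3 and 4 and at 0 in cCLP replicates 2, 3 and 4. Adgre1, C1qa, C1qb, C1qc and Cd14 were at no more than 6 in any library, and Mertk was listed at 0 in all 8. The list summed to 286 to 705 scaled in ex vivo replicates 1, 3 and 4, to 355 in cCLP replicate 1, to 19.9 in ex vivo replicate 2 and to 42.1 to 84.5 in cCLP replicates 2, 3 and 4. Of those that fell, Csf1r, Lyz2 and Ly6c2 are monocyte genes and Cd68 is a lysosomal protein gene of macrophages.

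**Figure D2:**
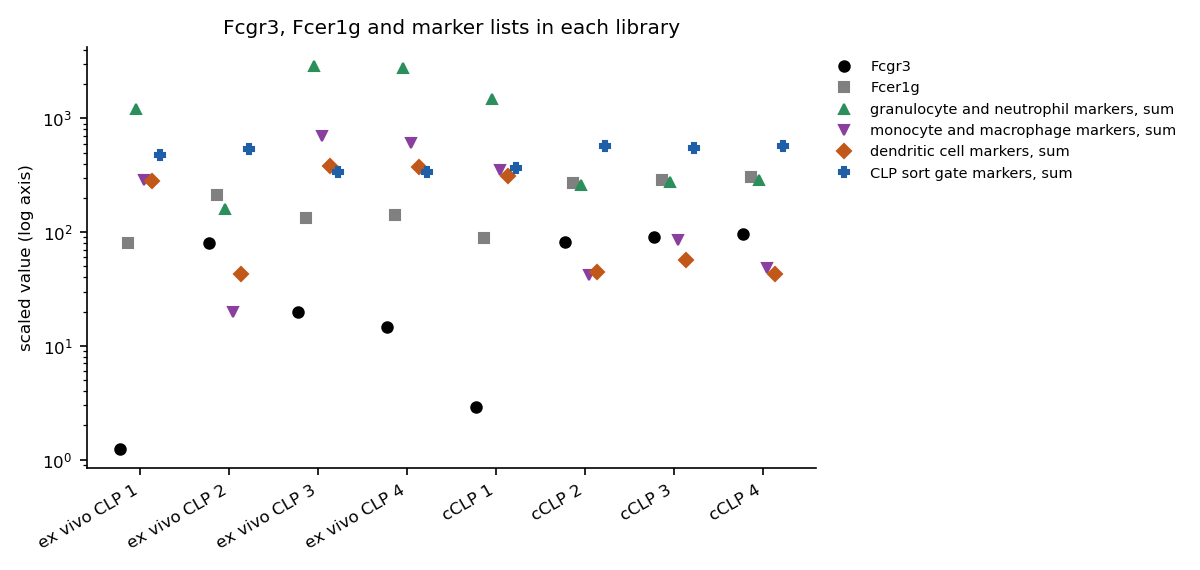
Scaled value of Fcgr3 and Fcer1g and the summed scaled value of 4 marker lists (vertical axis, log scale) in each of the 8 libraries along the horizontal axis, 1 symbol per library. In ex vivo replicate 2 and cCLP replicates 2 to 4 Fcgr3 is at 80.7 or above while the granulocyte, monocyte and dendritic sums are at their lowest. Among the other 4 libraries, Fcgr3 is higher in ex vivo replicates 3 and 4, where the granulocyte sum is 2750 or more and the monocyte and dendritic sums are also higher.

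The Fc receptor-like genes went different ways. Fcrl1, which encodes a B cell surface protein (ENSMUSG00000059994, chromosome 3, 87376387 to 87402934, plus strand), was listed at 8, 19, 6 and 7 in ex vivo replicates 1 to 4 and at 7, 21, 26 and 27 in cCLP replicates 1 to 4. It stood at 19 or above in the cCLP-like libraries and at 8 or below in the others. As labelled it averaged 10.8 ± 7.05 (SD, n = 4) and 19.2 ± 8.41 scaled, with a log2 fold change of 0.80 ± 0.50 (SE). Over the 6 libraries it averaged 7.51 ± 2.38 (SD, n = 3) and 23.6 ± 1.49, 3.14 times as much (log2 fold change 1.57 ± 0.20). Fcrl1 was below a scaled value of 10 in each of ex vivo replicates 1, 3 and 4, so it entered that fit only through the cCLP libraries and its direction was fixed. Fcrla, which encodes a protein kept inside B cells (ENSMUSG00000038421, chromosome 1, 170917576 to 170927583, minus strand), was listed at 3, 2, 2 and 2 in ex vivo replicates 1 to 4 and at 1, 1, 0 and 1 in cCLP replicates 1 to 4. Its labelled groups did not overlap, but all values were too low for the fit.

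The B lineage list gave no common direction beside Fcrl1. Ebf1 was listed at 8 in ex vivo replicate 2 and at 7, 6 and 9 in cCLP replicates 2, 3 and 4, and at no more than 1 elsewhere. Cd79a was listed at 27 in ex vivo replicate 2, at 7, 7 and 16 in cCLP replicates 2, 3 and 4, and at no more than 1 elsewhere. Pax5, a B lineage commitment factor gene, was listed at no more than 2 in any library. Cd79b went the other way, at 32, 30 and 43 in ex vivo replicates 1, 3 and 4 and at 1, 2 and 4 in cCLP replicates 2, 3 and 4. It was the only gene of the list tested over the 6 libraries and fell, with its direction fixed by the filter. In the same libraries Cd22 was listed at 2, 3 and 5 and then at 0, and Vpreb1 at 1, 1 and 2 and then at 0. The 9 markers of the list summed to 38.5 to 45.4 scaled in ex vivo replicates 1, 3 and 4, to 48.7 in ex vivo replicate 2, to 38.3 in cCLP replicate 1 and to 15.4 to 27.2 in cCLP replicates 2, 3 and 4. The part of B lineage cells in the Fcrl1 values was not tested.

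Fcgrt, like Fcrla, was lower in cCLP replicates 2, 3 and 4 than in the 3 ex vivo libraries they were set against. It (ENSMUSG00000003420, chromosome 7, 45092990 to 45103851, minus strand) was listed at 4, 0, 8 and 13 in ex vivo replicates 1 to 4 and at 8, 0, 1 and 0 in cCLP replicates 1 to 4. Scaled values over the 6 libraries were 4.95 to 9.98 and 0 to 0.97, without overlap and too low for the fit. Its light chain B2m, which also pairs with MHC class I, fell as well. B2m was listed at 2056, 2478 and 3420 in ex vivo replicates 1, 3 and 4 and at 670, 902 and 1061 in cCLP replicates 2, 3 and 4 (a limma log2 fold change of -1.71 ± 0.15 SE and an adjusted p of 7.03e-05). Of the 6 genes listed as partners or carriers of this receptor 4 were tested, 1 fell (B2m) and 1 rose. Myo5a, a myosin motor gene, rose from 16.7 ± 2.15 (SD, n = 3) to 55.5 ± 5.64 scaled (a limma log2 fold change of 1.68 ± 0.12 SE and an adjusted p of 2.19e-05). Rab5a, of the early endosome, was at 50.4 ± 9.5 and 39.4 ± 1.66 (-0.33 ± 0.14, adjusted p = 0.0975), and fell without ex vivo replicate 1 (-0.51, adjusted p = 0.00454).

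In all, 3 of the 8 genes (Fcer1g, Fcgr3 and Fcrl1) passed the filter on low values in each comparison, and 5 did not. These counts describe the 3 and are no test of them. As labelled, 0 of the 3 passed an adjusted p of 0.05 in limma, the share over all 6486 genes tested being 0%; 477 genes had an unadjusted p below 0.05. In the 6 libraries all 3 were past it as higher in cCLP, Fcrl1 with its direction fixed by the filter, against 20.8% of 6573 genes called higher, 22.2% called lower and 43% in either direction, and 2 did without cCLP replicate 2. The scaled values did not overlap for 5 of the 8 over the 6 libraries (Fcer1g, Fcgr3 and Fcrl1 higher, Fcgrt and Fcrla lower), beside 55.8% of genes tested. As labelled this held for Fcrla alone, beside 3.48% of genes tested. Because the genes were chosen by these comparisons, nothing is read from the counts.

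Position was not used to choose the genes, and 5 of them lie in one stretch of chromosome 1 in the order Fcrla, Fcgr2b, Fcgr4, Fcgr3 and Fcer1g. Between 250 kb before Fcrla and 250 kb after Fcer1g (170667576 to 171484365) the tables list 42 genes, of which 10 besides the receptors were tested over the 6 libraries. Among these 10, 2 rose (Atf6 and Arhgap30), 2 fell (Tomm40l and Usf1) and 6 were not called, with log2 fold changes from -0.73 to 0.61. The values for Fcgr3 (3.34) and Fcer1g (1.31) lay outside that range. Both receptor genes were chosen by such differences and the neighbours were not, so this contrast is only a description. The range also leaves out genes that did not pass the filter on low values. One of them, Pcp4l1, lies between Fcgr3 and Fcer1g. Pcp4l1 was listed at 7, 11 and 24 in ex vivo replicates 1, 3 and 4 and at 0 in cCLP replicates 2, 3 and 4. Near Fcer1g, Tomm40l, an outer mitochondrial membrane gene, fell (-0.73 ± 0.11 SE, adjusted p = 0.00112). Within about 100 kb of Fcgr3, Sdhc, a respiratory complex II gene, was at -0.19 ± 0.11 (adjusted p = 0.2). Fcgr4, with its midpoint at -33.7 kb from that of Fcgr3, was listed at 0 in every library but ex vivo replicate 4, where it was at 1. The call for Arhgap30, a GTPase-activating protein gene (0.34 ± 0.11, adjusted p = 0.0404), ended with scaling by the sum of values (adjusted p = 0.0865) and without any 1 of ex vivo replicates 3 or 4 or cCLP replicates 2, 3 or 4 (adjusted p = 0.0847 to 0.112).

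**Figure D3:**
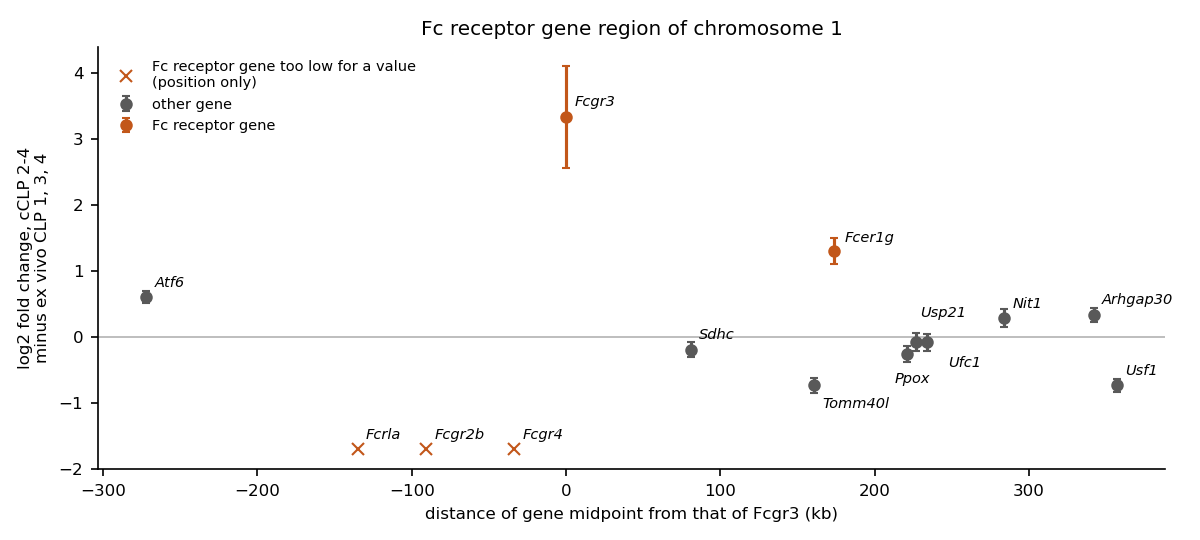
Log2 fold change (cCLP replicates 2, 3 and 4 minus ex vivo replicates 1, 3 and 4; points with SE bars, n = 3 per group) of the genes tested in the Fc receptor region, by distance in kb of each gene's midpoint from that of Fcgr3. Fcgr3 (3.34) and Fcer1g (1.31) stand above the 9 other genes plotted, at -0.73 to 0.61, and crosses mark 3 receptor genes with no value. Other genes that did not pass the filter on low values, Pcp4l1 among them, are not plotted.

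Most other Fc receptor genes were listed at 0. Of 11 further Fc receptor or receptor-like genes, 8 were listed at 0 in all 8 libraries, among them Fcer2a, Fcmr, Pigr, Fcrlb and Fcrl5. Fcer1a and Ms4a2, which encode the chains that join the gamma chain in the high-affinity IgE receptor of mast cells and basophils, were listed at 4 and 1 in ex vivo replicate 3, at 6 and 3 in ex vivo replicate 4 and at 0 elsewhere. Trim21, a cytosolic antibody receptor, was the only one tested and was at 17.4 ± 5.61 (SD, n = 3) and 13.6 ± 0.908 scaled (a limma log2 fold change of -0.29 ± 0.20 SE and an adjusted p of 0.286). It fell without ex vivo replicate 4 (-0.50, adjusted p = 0.0451).

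Other signalling adaptors, a list of 8 genes, mostly did not pass the filter on low values. Of the 8, 3 were tested over the 6 libraries (Tyrobp, Hcst and Cd79b), 0 rose and 2 fell, and without the filter 1 rose. Cd79a, which was too low for the fit, was higher in the cCLP-like libraries, as its listed values show. Tyrobp, which encodes DAP12, the ITAM adaptor of many myeloid and natural killer receptors, was at 455 ± 134 (SD, n = 3) and 321 ± 70.7 (-0.49 ± 0.24 SE, adjusted p = 0.147). It fell without ex vivo replicate 1 (-0.73, adjusted p = 0.0283). Hcst, the gene for the adaptor DAP10, which signals without an ITAM, fell from 26.6 ± 5.12 to 5.03 ± 0.888 (-2.19 ± 0.17, adjusted p = 2.65e-05), and Cd79b, of the B cell receptor, from 36.2 ± 4.17 to 2.14 ± 1.2 (-3.63 ± 0.26, adjusted p = 1.94e-05). Both were below 10 in each of cCLP replicates 2, 3 and 4, so the filter fixed their direction.

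Receptors that pair with the gamma chain were few. Of 11 listed, 4 were at 0 in every library and 2 were tested, and the filter fixed the direction of both. Clec4d, a C-type lectin receptor gene, rose from 1.15 ± 1.1 (SD, n = 3) to 12.4 ± 0.612 scaled (a limma log2 fold change of 2.79 ± 0.38 SE and an adjusted p of 0.000793). Csf2rb, the common beta chain of the IL-3, IL-5 and GM-CSF receptors, fell from 17.7 ± 2.61 to 5.75 ± 0.905 (-1.47 ± 0.16, adjusted p = 0.000167). Without any 1 of ex vivo replicate 1 or cCLP replicates 2, 3 or 4, 2 genes of the list fell.

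Genes that carry the activating signal onward went both ways. Of 25, 19 were tested over the 6 libraries, 5 rose (Fyn, Lat2, Plcg2, Pik3r1 and Syk), 6 fell (Lcp2, Vav3, Lat, Lyn, Shc1 and Rac2) and 8 were not called, with a median log2 fold change of -0.13 against 0.01 over all genes. Among kinases that act on the ITAM, Fyn rose from 19 ± 2.5 (SD, n = 3) to 43.9 ± 1.96 (1.17 ± 0.12 SE, adjusted p = 0.000114), Syk rose from 33.1 ± 3.66 to 45.1 ± 1.8 (0.44 ± 0.11, adjusted p = 0.0111) and Lyn fell from 42.4 ± 3.91 to 30.8 ± 1.54 (-0.44 ± 0.10, adjusted p = 0.00936). Lcp2, the gene for the adaptor SLP-76, was listed at 10, 11 and 24 in ex vivo replicates 1, 3 and 4, at 16 in cCLP replicate 1 and at 0 in the other 4 libraries, so the filter fixed its direction. Vav3, a guanine nucleotide exchange factor gene, fell from 25 ± 3.44 to 9.52 ± 0.779 (-1.30 ± 0.13, adjusted p = 0.000117). As labelled, 0 of the 19 passed, and the other pathway lists likewise had 0 calls.

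Inhibitory signalling genes also divided. Of 12, 9 were tested, 4 rose (Dok2, Inpp5d, Sla2 and Csk), 2 fell (Pag1 and Sla) and 3 were not called, with a median of 0.30. Inpp5d, the gene for the phosphatase that the Fcgr2b product recruits, rose from 72 ± 4.67 (SD, n = 3) to 136 ± 4.38 scaled (a limma log2 fold change of 0.91 ± 0.09 SE and an adjusted p of 0.000135). Dok2, an adaptor gene, rose from 27.5 ± 8.59 to 84.9 ± 16 (1.62 ± 0.22, adjusted p = 0.000774). Pag1, which encodes an anchor for the kinase Csk, fell from 13.3 ± 1.88 to 4.82 ± 0.516 (-1.30 ± 0.15, adjusted p = 0.000329), with its direction fixed by the filter.

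Transcription factor genes known to act at myeloid Fc receptor promoters mostly fell over the 6 libraries. Of 8, 7 were tested, 1 rose (Elf1), 5 fell (Irf8, Cebpa, Spi1 and Sp1 among them) and 1 was not called, with a median of -0.78. Over all 6573 genes tested, 20.8% were called higher and 22.2% lower. Any link of these genes to the Fcgr3 and Fcer1g values was not tested. Irf8 fell from 158 ± 22.4 (SD, n = 3) to 5.46 ± 1.26 scaled (a limma log2 fold change of -4.63 ± 0.16 SE and an adjusted p of 5.7e-07) and Cebpa from 22.5 ± 8.84 to 1.29 ± 0.575 (-3.31 ± 0.32, adjusted p = 0.000115). Both were below 10 in each of cCLP replicates 2, 3 and 4, which fixed their direction. Spi1, whose product PU.1 binds GAGGAA boxes, was listed at 36, 65 and 104 in ex vivo replicates 1, 3 and 4 and at 32, 41 and 46 in cCLP replicates 2, 3 and 4 (-0.78 ± 0.21, adjusted p = 0.0211). The Spi1 call ended without any 1 of ex vivo replicates 3 or 4 or cCLP replicates 2 or 4 (adjusted p = 0.0544 to 0.0817). No gene of the list rose (0) without any 1 of ex vivo replicates 3 or 4 or cCLP replicates 2, 3 or 4, or with scaling by the sum of values, and 3 fell without cCLP replicate 4.

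**Figure D4:**
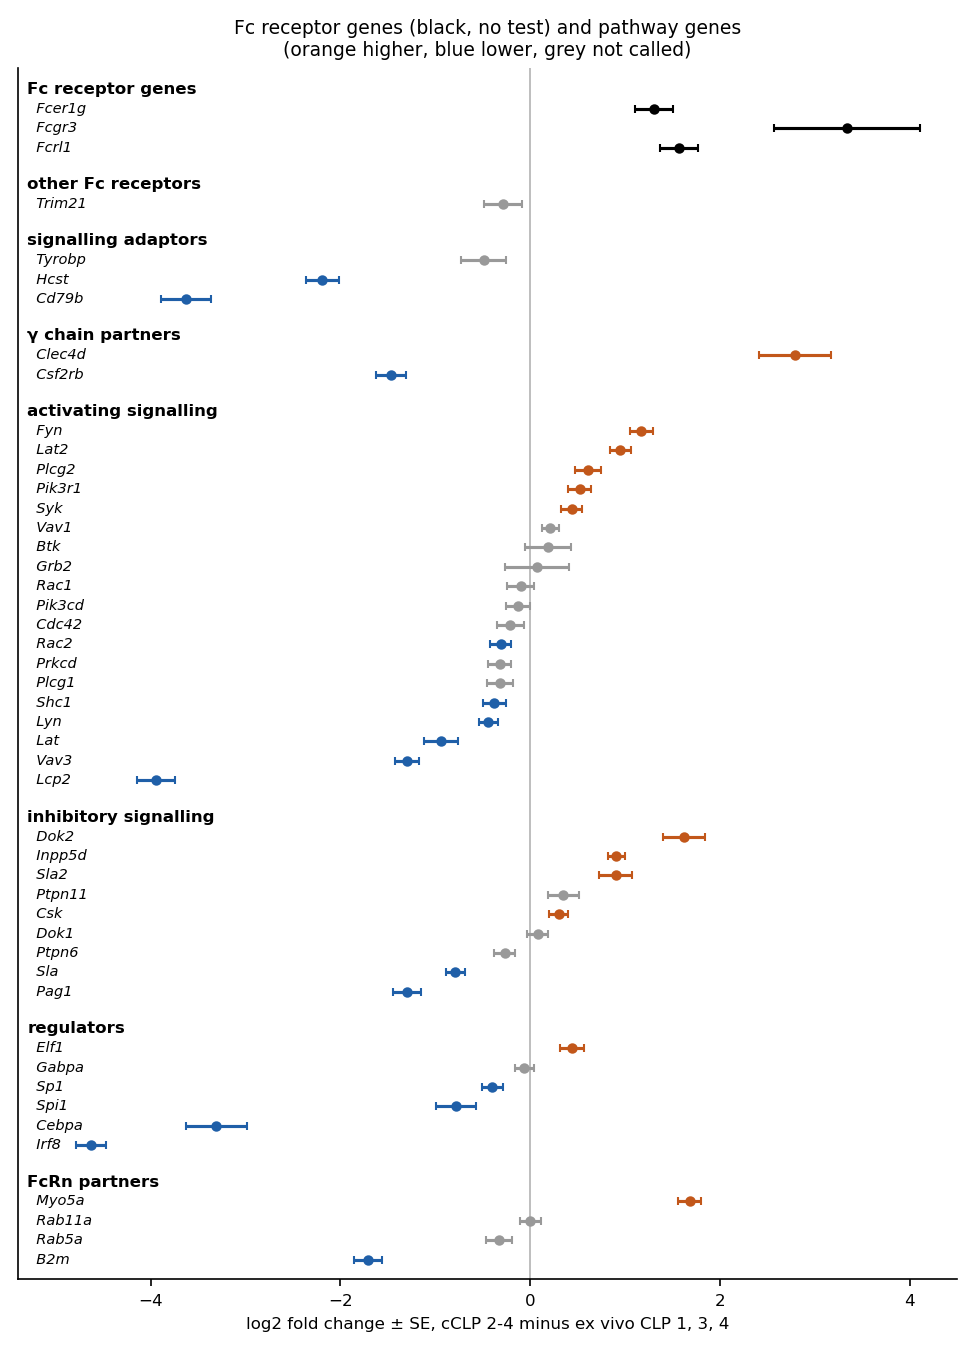
Log2 fold change with SE (horizontal axis; cCLP replicates 2, 3 and 4 minus ex vivo replicates 1, 3 and 4, n = 3 per group) of the 3 Fc receptor genes that could be fitted (black, described without a test) and of tested genes of 7 pathway lists. Orange and blue points passed an adjusted p of 0.05 as higher or lower, and grey points did not. All 3 receptor genes lie right of 0, but they were chosen by such differences and the filter fixed the direction of Fcrl1. The activating, inhibitory and regulator genes lie on both sides.

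The genes most like the receptors over the 8 libraries were found from log2 scaled values centred on each gene's mean, by the root mean square difference. Nearest to Fcgr3 were Mt1, a metallothionein gene (0.417), Gpr141, an orphan receptor gene (0.681), Klra1, a natural killer receptor gene (0.708), Prss16, a thymic protease gene (0.758), and Spp1, the osteopontin gene (0.778). The median over the 6483 genes compared was 2.05. Mt1 was listed at 3, 149, 19 and 30 in ex vivo replicates 1 to 4 and at 11, 202, 230 and 279 in cCLP replicates 1 to 4, so it also had its lowest values in ex vivo replicate 1 and cCLP replicate 1. Nearest to Fcer1g were Hist1h1c, a linker histone gene (0.173), Rgs14 (0.207), Spaca9 (0.214), Dirc2 (0.216) and the integrin gene Itga6 (0.221), with a median of 0.732 over all. Nearest to Fcrl1 were Slc26a11 (0.0906), Evl (0.12), Stap1 (0.136), Tnfaip8l2 (0.14) and 2610035D17Rik (0.156), with a median of 0.833. All these genes share the same 8 libraries and the same split between them, so the likeness is a description.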

How the data were processed

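Values were read from 8 tables, 1 per library, with 39179 Ensembl gene IDs each; 37607 matched GENCODE vM21 (GRCm38), and the others held 0.31% of the summed values. The authors deposited a score per gene, a whole number on an unnamed scale. Per the submitters' processing notes TopHat2, Bowtie2 and HTSeq 1.0.6 were used with GRCm38 (mm10); their roles, the strand setting and any scaling are not given in the sources used here. For values of 5 to 50 the dispersion index was 0.47 between ex vivo replicates 3 and 4 (6896 genes) and 0.262 between cCLP replicates 3 and 4 (6793 genes), where counting error gives 1, so no count model, counting interval or detection limit was used. Per the labels, 100 ng of RNA went into Ribo-Zero stranded libraries read as pairs of 75 nt.

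Groups follow the labels. Each library was scaled by a trimmed mean of its log ratios, with 30% of ratios and 5% of levels trimmed. Genes with a scaled value of at least 10 in at least the number of libraries of the smaller group were fitted as log2(scaled value + 1) with limma 3.58.1 (R 4.3.3; trend, robust, two-sided), with Benjamini-Hochberg adjusted p below 0.05 over all genes as the call. Adding 1 understates the change of low genes. The fit was tested on simulated data in which no library lay with the other group and low genes were left unchanged. That test therefore does not cover the 2 libraries that lie with the other group, or changes in low genes. Sequences were read with Python 3.11.15 and pandas 2.3.3 from RefSeq tables of GRCm38.p6, in which all 8 genes matched.

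The members, lists and the 6-library comparison were chosen with earlier results of these data known. Named were the 8 members, the 3 tested genes of each pathway list with the largest log2 fold change, the tested neighbours, and the 5 genes most like each of Fcgr3 and Fcer1g; Fcrl1 was added to the last after it was seen to be tested, and Syk, Lyn and single markers were named after their values were seen. Some tested genes are counted but not reported by name here. Alternatives were other scalings, a pseudocount of 5, no filter, a replicate block and leaving out each library.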

Additional observations from a re-analysis of the deposited data

Results flagged for a closer look

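Within each labelled group of 4 libraries, the gap between an extreme library and its nearest neighbour was set against the group's range, in the 14 groups of the 8 genes whose values were not all 0. Chance puts about 1 in 20 groups past Dixon's 95% limit, and 6 were past it, which is given as a description because these values chose the genes. The first 4 are in the library labelled cCLP replicate 1, whose whole profile lies with the ex vivo group. In cCLP, replicate 1 stood apart for Fcer1g (0.833 of the range), Fcgr3 (0.833), Fcrl1 (0.843) and Fcgrt (0.874), being the lowest of the group for the first 3 genes and the highest for Fcgrt. In ex vivo CLP, replicate 4 stood apart for Fcgr1 and for Fcgr4 (1 in each case), which a single unit gives by construction, since both were listed at 1 there and at 0 in the other libraries.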

How the results depend on the processing

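The log2 fold changes of Fcer1g, Fcgr3 and Fcrl1 kept their sign under every scaling, pseudocount, filter, block and omission tried, and the median log2 fold change of all genes stayed within 0.1 of 0. The receptor genes were chosen by these differences, so their kept sign is no test. For Fcrl1 the filter fixed the sign in the main fit of the 6 libraries. Over the 6 libraries, changing the scaling, pseudocount, filter or block gave 1.10 to 1.35 for Fcer1g, 2.40 to 3.39 for Fcgr3 and 1.21 to 1.80 for Fcrl1. As labelled, leaving out 1 library gave 0.42 to 1.08 for Fcer1g and 0.52 to 1.20 for Fcrl1. Over the 6 libraries the number of genes called was 1369 higher and 1459 lower. Without a filter on low values it was 2216 and 2761, as more genes were fitted, and leaving out 1 library gave 889 to 1584 higher and 1217 to 1824 lower (889 higher without cCLP replicate 4). Genes near 0 changed sign: Cd27 (0.01 with the replicate block), Usp21 (0.07 with the block, 0.04 without ex vivo replicate 1) and Ufc1 (0.04 without ex vivo replicate 3). Over the omissions in which it passed the filter Usp21 ran from -0.18 to 0.04, and over all 6 omissions Ufc1 ran from -0.16 to 0.04. Without ex vivo replicate 1, Nit1 (0.35, adjusted p = 0.0421) and Flt3 (0.38, adjusted p = 0.0173) were called. As labelled, 0 genes were called under any alternative.

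The replicate numbers share no stated animal or batch and were not taken as pairs. Deviations from group means correlated at 0.595, 0.843, -0.575 and -0.86 for numbers 1 to 4, and these means include the 2 libraries that lie with the other group. The 6 libraries hold replicate number 1 only as ex vivo CLP and number 2 only as cCLP. With the replicate number as a block, the group difference over the 6 libraries therefore rests on numbers 3 and 4 alone. The Fcgr3 log2 fold change was then 2.40. Tyrobp (limma adjusted p = 0.011) and Rab5a (0.0225) were called, and Arhgap30 was not (0.0501). With so few libraries left to compare, these adjusted p-values carry little weight. Depth is unknown, so values of a few units are not firm.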

Other observations

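Natural killer genes did not share one direction beside Fcgr3, which natural killer cells also express. Klrd1, an inhibitory receptor subunit gene, rose over the 6 libraries from 15.1 ± 2.96 (SD, n = 3) to 34.3 ± 5.8 scaled (limma log2 fold change 1.14 ± 0.17 SE, adjusted p = 0.00119). Klra1 was listed at 0, 14, 1 and 2 in ex vivo replicates 1 to 4 and at 1, 16, 15 and 21 in cCLP replicates 1 to 4. Nkg7, a granule membrane gene, was listed at 36, 39 and 85 in ex vivo replicates 1, 3 and 4 and at 4, 12 and 5 in cCLP replicates 2, 3 and 4, and Ncr1, Gzma and Eomes were listed at 0 in all 8 libraries. The choice of these genes followed a look at their values.

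Il3ra, the gene for the IL-3 receptor alpha chain, was listed at 13 and 24 in ex vivo replicates 3 and 4, at 6 in ex vivo replicate 1, at 13 in cCLP replicate 1 and at 3 to 5 in the other 4 libraries. Pcp4l1, which lies between Fcgr3 and Fcer1g, was listed at 7, 11 and 24 in ex vivo replicates 1, 3 and 4, at 14 in cCLP replicate 1 and at 0 in the other 4 libraries. In those 4 Fcgr3 was at 73 or above. Fcer1g was at 191 or above there, but also at 195 in ex vivo replicate 4, where Pcp4l1 was highest.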
